A study of Mus musculus with 10 samples.

Results

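Secreted cytokines and senescence factors were followed as 10 genes of the mouse liver count table: Csf1, Gdf15, Il6, Il1a, Il1b, Tnf, Icam1, Timp1, Vegfa and Hgf. They were chosen by gene name, and all 10 were found among the 55487 genes of the table. The livers came from mice aged 22 months (strain given as C57B/6J, normal chow, littermates housed together), with 5 libraries of mice lacking Arg2 in hepatocytes (Arg2LKO, called LKO) and 5 of mice with floxed Arg2 alleles (Arg2fl/fl, called Flox). The question of the study is what loss of arginase 2 from hepatocytes does to liver gene expression in old age. The promoter that drives the recombinase in LKO is not given in the sources used here, and no label says that each library is a separate mouse, so p-values measure only the spread between these libraries, which may in part be technical.

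Cells that have stopped dividing for good, called senescent, release a mixture of cytokines, growth factors, adhesion molecules and protease inhibitors known as the senescence-associated secretory phenotype. In liver the same molecules also serve in inflammation and regeneration. Tnf, Il1a and Il1b, mostly products of macrophages and other myeloid cells, activate the transcription factor NF-kB in their target cells, and Il6 drives hepatocytes to make acute phase proteins. Csf1 keeps macrophages alive, Icam1 lets leukocytes adhere, Timp1 inhibits matrix metalloproteinases, Vegfa acts on endothelium, and Hgf, made largely by stellate and other non-parenchymal cells, stimulates hepatocyte growth through the receptor Met. Gdf15 is a hormone of cellular stress that lowers appetite through a receptor in the hindbrain.

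The libraries held 43331354 to 53891438 counts in LKO and 44926666 to 54951415 in Flox. Levels are given as CPM, the usual scaling of a gene's count by its library total. Albumin, the main secreted product of hepatocytes, was checked as the defining transcript of liver and stood at 106771 ± 9091 CPM in LKO and 71229 ± 23996 CPM in Flox (SD, n = 5 each). Arg2 had 10 counts over the 5 LKO libraries and 9 over the 5 Flox libraries, too few to check the deletion. The serum amyloid genes Saa1 and Saa2, which mark an acute phase response, took 0.00371% to 0.0803% of the counts of an LKO library, and 1.72%, 3.43% and 0.394% in Flox 2, 3 and 4. Flox 1 and 5 were at 0.00970% and 0.00787%. LKO libraries are named by their column number, which the sample titles do not carry.

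The stretch of 250 bases before the RefSeq start site (RefSeq, build GRCm38.p6) is shown for 5 genes that were all high in Flox 3 or 4 and, Tnf apart, lowest in LKO 1, in the sense of the gene. Capitals mark an NF-kB motif (3 G, an A, any base, 3 T and 2 C), an AP-1 motif (TGANTCA), a GC box (GGGCGG) or a TATA box (TATAAA), each searched on both strands. The windows are chr3:107760470-107760719 for Csf1, chr9:21015690-21015939 for Icam1, chr2:129371140-129371389 for Il1b, chr2:129309973-129310222 for Il1a and chr17:35202008-35202257 for Tnf. Icam1 lies on the plus strand and the other 4 on the minus strand. Timp1 and Il6 were also highest in Flox 3 or 4, and their windows are not shown.
Csf1: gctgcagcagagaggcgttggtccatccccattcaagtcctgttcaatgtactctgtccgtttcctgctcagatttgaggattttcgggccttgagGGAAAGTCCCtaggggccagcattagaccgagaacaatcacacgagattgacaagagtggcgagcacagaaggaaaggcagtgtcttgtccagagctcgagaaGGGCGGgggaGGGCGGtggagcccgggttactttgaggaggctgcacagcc
Icam1: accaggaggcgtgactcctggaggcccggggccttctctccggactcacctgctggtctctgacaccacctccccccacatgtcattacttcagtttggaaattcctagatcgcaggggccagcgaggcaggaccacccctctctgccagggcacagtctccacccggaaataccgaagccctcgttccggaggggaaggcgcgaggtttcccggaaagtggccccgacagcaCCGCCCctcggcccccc
Il1b: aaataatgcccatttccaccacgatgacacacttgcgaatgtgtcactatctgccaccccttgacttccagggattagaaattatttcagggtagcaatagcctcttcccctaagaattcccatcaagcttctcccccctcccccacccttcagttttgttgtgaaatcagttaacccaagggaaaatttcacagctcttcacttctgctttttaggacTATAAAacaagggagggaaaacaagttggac
Il1a: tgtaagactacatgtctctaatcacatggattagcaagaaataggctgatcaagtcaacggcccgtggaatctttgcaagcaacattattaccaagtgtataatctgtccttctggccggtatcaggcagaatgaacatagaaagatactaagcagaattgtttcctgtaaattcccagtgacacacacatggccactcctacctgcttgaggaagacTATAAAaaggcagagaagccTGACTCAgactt
Tnf: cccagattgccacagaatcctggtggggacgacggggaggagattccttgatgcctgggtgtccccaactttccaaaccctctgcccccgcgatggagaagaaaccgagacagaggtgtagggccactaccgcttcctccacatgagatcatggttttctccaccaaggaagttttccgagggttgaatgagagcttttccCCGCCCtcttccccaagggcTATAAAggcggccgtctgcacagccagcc

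The Csf1 window held 1 NF-kB motif, read on the other strand at positions -154 to -145 from the start, which 0.356% of the 32851 mouse promoter windows of this length also held, and 2 GC boxes. Il1b, Il1a and Tnf each held a TATA box starting at positions -31, -32 and -29, a motif present in 12.4% of all windows. The Il1a window also held an AP-1 motif, at positions -12 to -6 (6.75% of all windows). GC boxes stood in the windows of Icam1 and Tnf as well as Csf1, and in 32.7% of all windows. The window of Icam1 was 65.2% G and C, those of Tnf and Csf1 57.6% and 56.4%, and those of Il1b and Il1a 44.4% and 42.4%, with a median of 52.4% over all windows. All 10 genes matched the promoter table, with 13 start sites. The NF-kB motif stood in 2 of these 13 windows, that of Csf1 and that of Il6 (positions -44 to -35). The AP-1 motif also stood in 2, that of Il1a and that of Il6 (positions -249 to -243). Such a match describes letters in a window and does not show that a factor binds there. The search took these exact letters only, so a window without a match may still hold a variant of the site.

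Vegfa was the most abundant of the 10 transcripts and Il6 the least. Per kilobase (kb) of exon, averaged over the 10 libraries, Vegfa stood at 14.8 ± 2.15 CPM per kb (SD, n = 10), followed by Gdf15 (4.68 ± 1.65), Icam1 (2.63 ± 1.93), Csf1 (1.65 ± 0.504), Il1b (0.784 ± 0.651), Il1a (0.524 ± 0.267), Hgf (0.400 ± 0.0585), Timp1 (0.257 ± 0.316), Tnf (0.133 ± 0.156) and Il6 (0.00408 ± 0.00866). The place of Vegfa at the top held in 10 of 10 libraries, and Csf1 was above Il1b in 10 of 10. Neighbours within the middle of the order were not separated beyond their spread: Icam1 exceeded Csf1 in 6 libraries, Il1b exceeded Il1a in 7, Il1a exceeded Hgf in 6 and Timp1 exceeded Tnf in 7. Gdf15 exceeded Icam1 in 8 libraries, Hgf exceeded Timp1 in 8, and Tnf exceeded Il6 in 9.

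**Figure D1:**
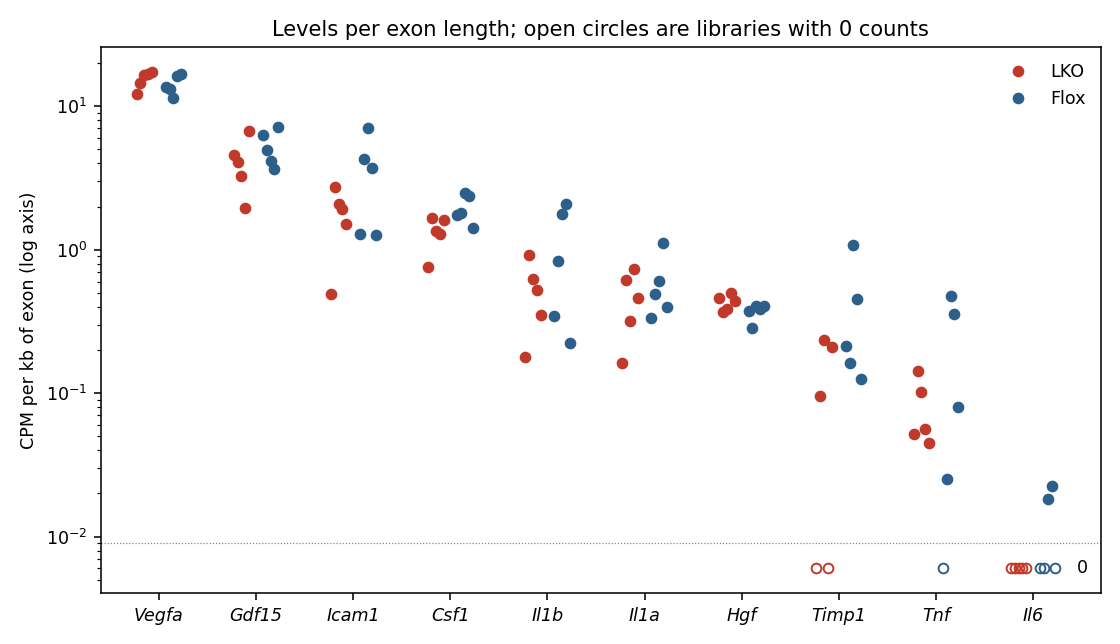
Level of each gene in CPM per kb of exon (log axis) in the 5 LKO (red, left) and 5 Flox (blue, right) libraries, with genes ordered by their mean. Vegfa lies above all other genes, while Il6 has 0 counts (open circles) in 8 of the 10 libraries.

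Over the table as a whole, edgeR's quasi-likelihood test called 0 of 15894 tested genes at an adjusted p under 0.05 (0% of genes), and 1193 (7.51%) had an unadjusted p under 0.05. That second number was 575 without Flox 3, 739 without LKO 4, 1885 without Flox 5 and 517 without Flox 2 and 3. DESeq2 called 6 genes, none of them among the 10 (1603 at an unadjusted p under 0.05), and limma-voom with sample quality weights called 0 (1020). Of the 10 genes, 7 had enough counts to be tested, and 0 of these 7 passed. Csf1 alone, 1 of 7, had an unadjusted p under 0.05 and lower values in LKO, against 7.51% of all genes in both directions and 4.33% lower in LKO. That count of 1 was 0 without LKO 1 (edgeR unadjusted p = 0.0507), LKO 4 (0.0543), Flox 3 (0.0701), Flox 4 (0.0688) or Flox 2 and 3 (0.0998). Without Flox 5, Il1b (edgeR unadjusted p = 0.0417) joined Csf1 (0.0104) under 0.05. None of the 7 had such a p with higher values in LKO, against 3.17% of all genes. Lower values in LKO were seen for 5 of the 7 (Csf1, Icam1, Il1b, Il1a and Gdf15), against 51.6% of all genes tested, and higher values for Vegfa and Hgf. The LKO and Flox libraries overlapped for all 10 genes, where 0.906% of all tested genes had groups that did not.

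**Figure D2:**
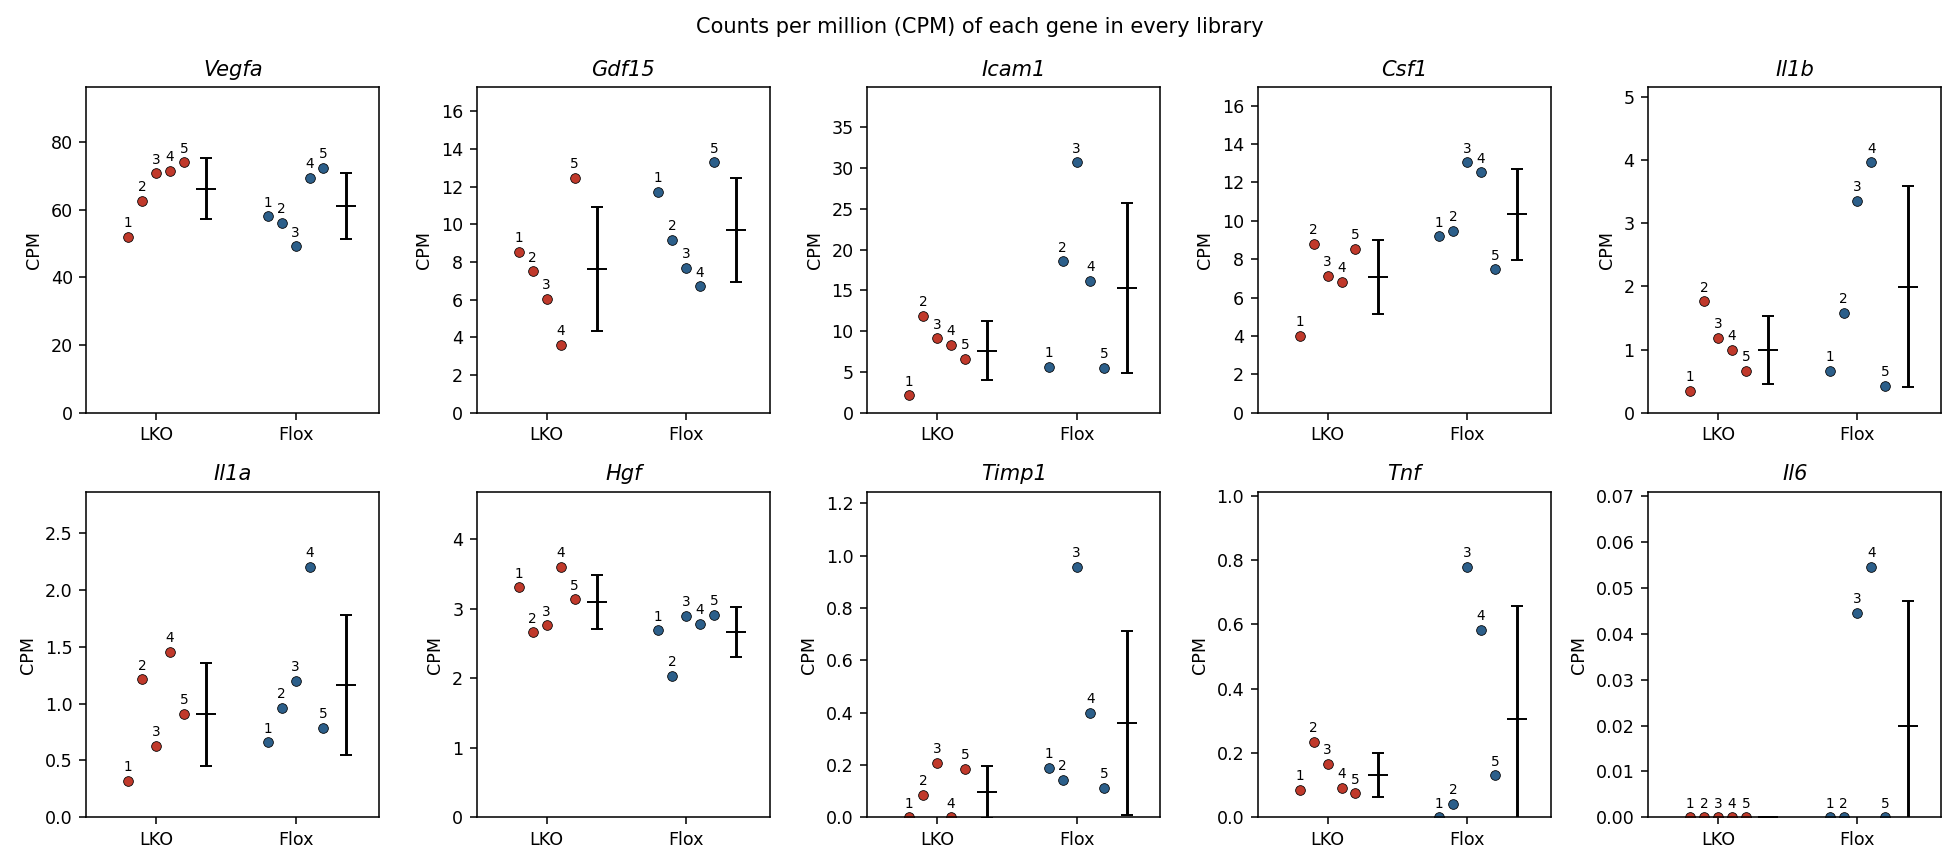
CPM of each gene in every LKO (red, left) and Flox (blue, right) library, with the library number above each point and the group mean ± SD (n = 5) beside it. Flox 3 or Flox 4 is the highest library for Icam1, Csf1, Il1b, Il1a, Timp1, Tnf and Il6, and LKO and Flox overlap in all panels.

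Csf1 (ENSMUSG00000014599, GRCm38 chromosome 3, 107741048 to 107760469), the growth factor of macrophages, was at 4.01, 8.81, 7.15, 6.83 and 8.55 CPM in LKO 1 to 5, against 9.19, 9.47, 13.0, 12.5 and 7.47 CPM in Flox 1 to 5. Flox libraries 1 to 4 lay above the highest LKO library and Flox 5 lay inside the LKO range. The means were 7.07 ± 1.91 CPM in LKO and 10.3 ± 2.37 CPM in Flox (SD, n = 5 each). The log2 fold change, LKO over Flox, was -0.51 ± 0.21 (SE, edgeR unadjusted p = 0.0290, adjusted p = 0.652). Its log2 fold change was -0.37 without LKO 1, the library lowest in Csf1, and -0.43 without Flox 2 and 3. Rcn1, a calcium-binding protein of the endoplasmic reticulum, and Myof, a membrane repair protein, were most like Csf1 in order (rho 0.988 and 0.976). Csf1r, the receptor on macrophages, was at 25.0 ± 13.8 CPM in LKO and 33.9 ± 23.4 CPM in Flox (-0.40 ± 0.47 SE), and Il34, the other ligand of that receptor, at 1.21 ± 0.341 CPM in LKO and 0.979 ± 0.258 CPM in Flox (0.35 ± 0.25 SE).

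Icam1 (ENSMUSG00000037405, chromosome 9, 21015985 to 21028817), the adhesion molecule that binds leukocyte integrins, varied most among the tested genes, 14.4-fold between its lowest and highest library. It stood at 2.13, 11.9, 9.11, 8.35 and 6.59 CPM in LKO 1 to 5, against 5.60, 18.6, 30.7, 16.2 and 5.53 CPM in Flox 1 to 5. The Flox livers split into 3 above every LKO library (Flox 2, 3 and 4, those with the high serum amyloid share) and a pair at the level of the lower LKO livers. The log2 fold change was -0.97 ± 0.55 (SE; edgeR adjusted p = 0.661), and it was -0.56 without Flox 3 and -0.22 without Flox 2 and 3. The order of the 10 libraries by Icam1 was the same as by Steap4, an acute phase metalloreductase of hepatocytes (Spearman's rho 1 over 10 libraries, a description). Hpx, the haem-binding plasma protein hemopexin, followed with a rho of 0.988, level with other genes. The integrin chains that Icam1 binds had log2 fold changes of -0.56 ± 0.48 (Itgal), -0.76 ± 0.52 (Itgam) and -0.72 ± 0.52 (Itgb2), each with its SE, and none passed.

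The interleukin 1 genes neighbour each other on chromosome 2, Il1a (ENSMUSG00000027399) from 129299610 to 129309972 and Il1b (ENSMUSG00000027398) from 129364570 to 129371139. Il1b, the cytokine that inflammasomes cut into its active form, was at 0.341, 1.77, 1.19, 0.992 and 0.668 CPM in LKO 1 to 5, against 0.658, 1.58, 3.36, 3.97 and 0.429 CPM in Flox 1 to 5. Flox 3 and 4 stood above all LKO libraries, and the other 3 Flox libraries lay within the LKO range. The log2 fold change was -0.96 ± 0.61 (SE; edgeR adjusted p = 0.673), and it was -0.57 without Flox 4. The genes with the most similar order over the 10 libraries were Cybb, the phagocyte oxidase subunit (rho 0.988), and Ambp, a hepatocyte plasma protein (rho 0.964, level with other genes).

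Il1a, the alarmin released by damaged cells, was at 0.320, 1.21, 0.627, 1.45 and 0.909 CPM in LKO 1 to 5, against 0.658, 0.966, 1.20, 2.20 and 0.784 CPM in Flox 1 to 5. Here a single Flox library, number 4, was above the LKO range. Its log2 fold change was -0.32 ± 0.41 (SE; adjusted p = 0.831) and turned to 0.03 without Flox 4. Per kb, Il1b exceeded Il1a except in LKO 4, LKO 5 and Flox 5. The exons of Il1a share 222 of 1974 bases with Gm14023 on the opposite strand (129 counts in all), and strandedness of the counting is not given. Marcks, a substrate of protein kinase C, and Ccnd2, a cyclin, were most like Il1a in order (rho 0.976 and 0.927).

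Of the interleukin 1 pathway, Il1r1, the signalling receptor, was at 17.7 ± 6.37 CPM in LKO and 70.2 ± 72.2 CPM in Flox (log2 fold change -1.95 ± 0.78 SE, unadjusted p = 0.0342, adjusted p = 0.652). Its partner chain Il1rap was at 143 ± 11.6 CPM in LKO and 122 ± 16.8 CPM in Flox (0.26 ± 0.12). The antagonist Il1rn was at 2.58 ± 1.15 CPM in LKO and 5.42 ± 6.24 CPM in Flox (-1.02 ± 0.67). Casp1 and Nlrp3, the protease and sensor of the inflammasome, had log2 fold changes of -0.51 ± 0.39 and -0.93 ± 0.64. The spread of Il1r1 in Flox was as large as its mean, and none of these genes passed edgeR's test after adjustment.

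Tnf (ENSMUSG00000024401, chromosome 17, 35199381 to 35202007) was below the count filter. It had 4, 11, 8, 4 and 4 counts in LKO 1 to 5, against 0, 2, 35, 32 and 7 counts in Flox 1 to 5, so that most Flox counts came from Flox 3 and 4. The lowest values of Tnf were also in Flox, in libraries 1 and 2. The group means were 0.131 ± 0.0684 CPM in LKO and 0.307 ± 0.352 CPM in Flox (SD, n = 5 each; exact two-sided permutation p = 0.405). In the fit without a filter the log2 fold change was -1.15 ± 0.87 (SE; edgeR adjusted p = 0.635), and it was -0.49 without Flox 3. The receptor Tnfrsf1a was at 86.5 ± 14.2 CPM in LKO and 129 ± 45.4 CPM in Flox (-0.54 ± 0.21 SE), and Tnfrsf1b at 21.5 ± 2.78 CPM in LKO and 30.8 ± 5.98 CPM in Flox (-0.48 ± 0.13 SE). The unadjusted p-values of the receptors were 0.0288 and 0.0037 in edgeR, with an adjusted p of 0.652 for each. Adam17, the protease that sheds Tnf, had a log2 fold change of -0.06 ± 0.14.

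Il6 (ENSMUSG00000025746, chromosome 5, 30013114 to 30019981) was at the limit of detection. No LKO library had an Il6 count, which allows up to 3 counts over the group or 0.0126 CPM, and Flox 3 and 4 had 2 and 3 counts, with 0 in the other 3 Flox libraries. Flox stood at 0.0196 CPM over the group. The exact 95% binomial interval of the ratio of LKO to Flox ran from 0 to 1.17, so no difference could be detected with so few counts. Floors and intervals cover counting error only. The receptor chains of Il6 were well detected: Il6ra stood at 25.7 ± 5.74 CPM in LKO and 33.7 ± 12.0 CPM in Flox (log2 fold change -0.35 ± 0.25 SE), and the shared chain Il6st at 119 ± 9.79 CPM in LKO and 147.5 ± 39.1 CPM in Flox (-0.27 ± 0.16 SE).

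Timp1 (ENSMUSG00000001131, chromosome X, 20870166 to 20874735), the metalloproteinase inhibitor, was also below the filter, at 0, 4, 10, 0 and 10 counts in LKO 1 to 5, against 10, 7, 43, 22 and 6 counts in Flox 1 to 5. Flox 3 and 4 lay above the highest LKO library and the other Flox libraries lay among LKO 2, 3 and 5. The means were 0.0959 ± 0.0992 CPM in LKO and 0.360 ± 0.352 CPM in Flox (exact two-sided permutation p = 0.0952). In the fit without a filter the log2 fold change was -1.80 ± 0.84 (SE; unadjusted p = 0.0494, edgeR adjusted p = 0.577) and was -1.07 without Flox 3. Among the metalloproteinases of the partner list, Mmp2 had a log2 fold change of -0.57 ± 0.30, Mmp9 of -0.22 ± 0.68 and Mmp14 of -0.27 ± 0.15. None passed edgeR's test.

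Gdf15 (ENSMUSG00000038508, chromosome 8, 70629393 to 70632456) followed another order of libraries. It was at 8.54, 7.51, 6.04, 3.60 and 12.5 CPM in LKO 1 to 5, against 11.7, 9.16, 7.68, 6.72 and 13.3 CPM in Flox 1 to 5. Flox 3 and 4, the libraries highest in Icam1 or Il1b, were the lowest in Gdf15 of the Flox group, and LKO 1, lowest in Icam1, was second highest of LKO. The means were 7.63 ± 3.29 CPM in LKO and 9.71 ± 2.75 CPM in Flox, a log2 fold change of -0.31 ± 0.30 (SE; edgeR adjusted p = 0.773) that ran from -0.55 without LKO 5 to -0.14 without LKO 4. Rnf43, a membrane ubiquitin ligase that dampens Wnt signalling, and Inpp5b, a phosphoinositide phosphatase, were most like Gdf15 in order (rho 0.988 and 0.964, the second level with another gene). The receptor gene Gfral, which is expressed in the hindbrain, had 1 count over all 10 libraries.

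Vegfa (ENSMUSG00000023951, chromosome 17, 46016993 to 46032369), the endothelial growth factor, was the steadiest of the genes, 1.51-fold between lowest and highest library. It was at 52.0, 62.6, 70.8, 71.5 and 74.0 CPM in LKO 1 to 5, against 58.1, 56.2, 49.2, 69.5 and 72.5 CPM in Flox 1 to 5. Flox 3, highest in Icam1 and Csf1, was the lowest of all in Vegfa, and the groups shared most of their range. The log2 fold change was 0.15 ± 0.12 (SE; edgeR adjusted p = 0.735), 0.08 without Flox 3 and 0.02 without Flox 2 and 3. Of its receptors, Flt1 was at 8.47 ± 0.722 CPM in LKO and 7.12 ± 0.542 CPM in Flox (0.29 ± 0.10 SE, unadjusted p = 0.0161, adjusted p = 0.652). Kdr was at 16.3 ± 2.24 CPM in LKO and 16.3 ± 3.22 CPM in Flox (0.03 ± 0.15), and the coreceptor Nrp1 at 49.6 ± 7.88 CPM in LKO and 62.7 ± 18.3 CPM in Flox (-0.30 ± 0.18). Nfx1, a zinc finger factor, and Lonrf1 were most like Vegfa in order (rho 0.964 and 0.952).

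Hgf (ENSMUSG00000028864, chromosome 5, 16553495 to 16620152) was at 3.31, 2.66, 2.76, 3.60 and 3.14 CPM in LKO 1 to 5, against 2.69, 2.03, 2.89, 2.78 and 2.91 CPM in Flox 1 to 5. LKO 1, 4 and 5 lay above all Flox libraries, Flox 2 lay below all others, and the rest overlapped. The means were 3.09 ± 0.389 CPM in LKO and 2.66 ± 0.363 CPM in Flox, a log2 fold change of 0.25 ± 0.16 (SE; edgeR adjusted p = 0.671), and 0.17 without Flox 2. Met, its receptor, was at 63.7 ± 2.46 CPM in LKO and 68.5 ± 8.75 CPM in Flox (-0.06 ± 0.09). Among the proteases that activate the Hgf precursor, Hgfac had a log2 fold change of 0.21 ± 0.17 and Hpn of -0.11 ± 0.11, and the protease inhibitor Spint2 one of -0.36 ± 0.12 (unadjusted p = 0.0131, adjusted p = 0.652). Naa20, an acetyltransferase subunit, and Gpbp1l1 were most like Hgf in order (rho 0.976 and 0.927, the second level with other genes).

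**Figure D3:**
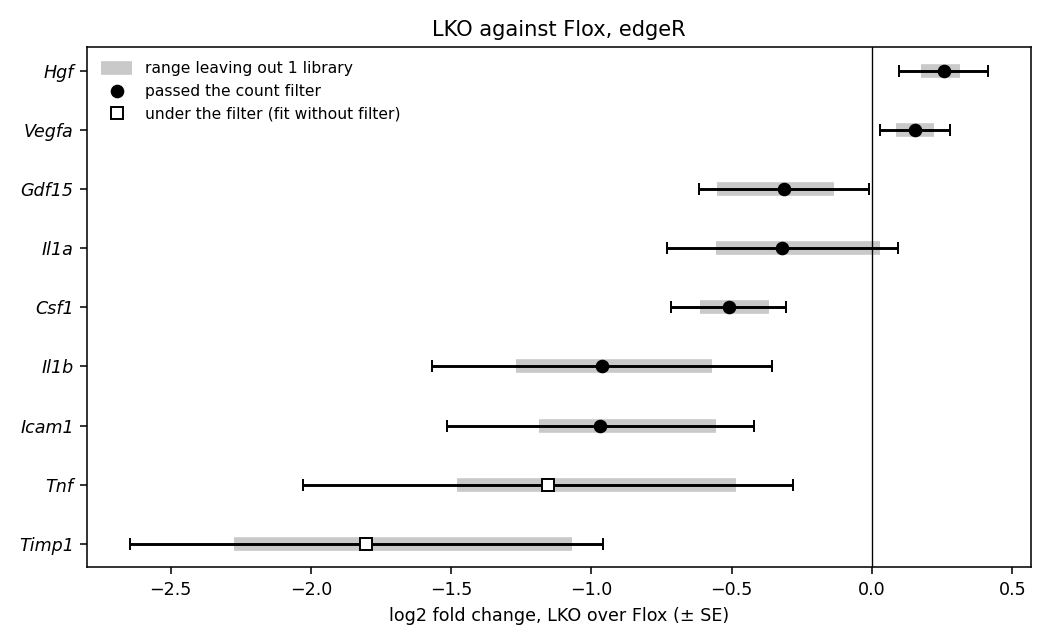
Log2 fold change of LKO over Flox with its SE for 9 of the genes (Il6, at 0 in all LKO libraries, is left out), with the grey bar giving the range when 1 library is left out. Vegfa and Hgf lie above 0 and the other 7 below it, and the bar of Il1a reaches from -0.56 to 0.03.

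Across libraries, 7 of the 10 genes were highest in Flox 3 or Flox 4: Icam1, Csf1, Tnf and Timp1 in Flox 3, and Il1a, Il1b and Il6 in Flox 4. LKO 1 was the lowest library for Csf1, Icam1, Il1a and Il1b and shared 0 counts of Timp1 with LKO 4. Gdf15, Vegfa and Hgf did not follow these libraries. Precision differed with this spread: the SE of the log2 fold change was larger than that of 94.4% of all tested genes for Icam1 and of 96.2% for Il1b, but of 26.5% for Vegfa, against a median SE of 0.18.

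**Figure D4:**
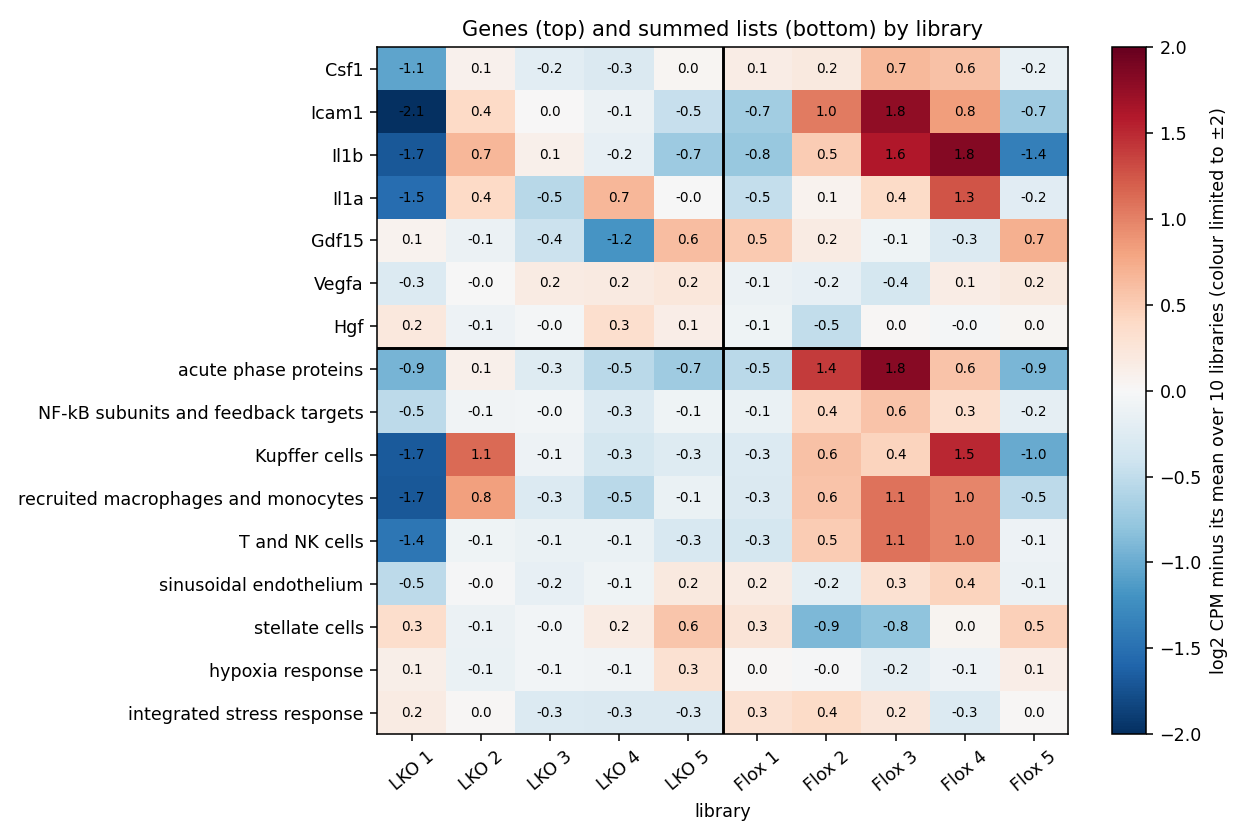
Log2 CPM of the 7 tested genes (top) and of the summed CPM of 9 lists (bottom) in each library, relative to the row's mean over 10 libraries, with LKO left of Flox. Csf1, Icam1, Il1b and Il1a are lowest in LKO 1, as are the sums of the recruited macrophage and the T and NK cell lists. Flox 3 or Flox 4 is the highest library for each of these rows, and Il1a in Flox 3 lies within the LKO range.

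Summed markers of immune cells were also low in LKO 1 and high in Flox 3 or 4. This was not particular to immune cells: the sinusoidal endothelial, NF-kB and acute phase sums were lowest in LKO 1 and highest in Flox 3 or 4. Nor was it uniform, as the Kupffer sum was 561 CPM in LKO 2 and 351 CPM in Flox 3, and the neutrophil sum was lowest in Flox 5. LKO 1 also had the fewest genes detected (21937, against 22641 to 23811 in the others). The summed CPM of 10 markers of recruited macrophages and monocytes ran from 19.6 to 112 in LKO and from 44.2 to 135 in Flox, lowest in LKO 1 and highest in Flox 3, and all 10 had lower values in LKO (median log2 fold change -0.62, against -0.0081 over all genes tested). Ccr2, the monocyte chemokine receptor, was at 1.10 ± 0.395 CPM in LKO and 3.24 ± 2.52 CPM in Flox (-1.51 ± 0.43 SE), and Itgax, an integrin chain of dendritic cells and macrophages, at 0.620 ± 0.286 CPM in LKO and 1.52 ± 0.833 CPM in Flox (-1.25 ± 0.43 SE). Lyz2, lysozyme, the most abundant of the list in CPM, was at 43.1 ± 29.3 CPM in LKO and 65.8 ± 31.6 CPM in Flox. The sum of 11 Kupffer cell markers ran from 80.5 to 561 in LKO and from 128 to 731 in Flox, again lowest in LKO 1, and all 11 were lower (median -0.31), with Cd5l at 58.8 ± 45.0 CPM in LKO and 81.3 ± 60.1 CPM in Flox. The complement genes C1qb and C1qc had log2 fold changes of -0.59 ± 0.44 and -0.57 ± 0.43. The median of the Kupffer list was 0.14 without Flox 4 and -0.79 without LKO 2, and that of the recruited list -0.37 without LKO 1 and -1.01 without LKO 2. In whole liver, fewer cells of a type and less RNA per cell cannot be told apart, and the part of these markers in the values of the cytokines was not tested.

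The sum of the 12 T and NK cell markers ran from 2.28 to 5.83 CPM in LKO and from 4.87 to 13.1 CPM in Flox, and 9 of the 10 tested were lower (median log2 fold change -0.88). Lck, which signals from T cell receptors, stood at 0.406 ± 0.106 CPM in LKO and 1.23 ± 0.636 CPM in Flox. Il2rb, a chain of the interleukin 2 receptor, stood at 0.869 ± 0.191 CPM in LKO and 2.05 ± 1.11 CPM in Flox. Cd4 was higher in LKO, at 1.39 ± 0.946 CPM against 0.943 ± 0.352 CPM in Flox (log2 fold change 0.59 ± 0.47 SE). Neutrophil markers were scarce, 2.41 to 22.6 CPM in LKO and 1.49 to 24.9 CPM in Flox over 10 genes, with all 5 tested members lower (median -0.74). S100a9, the most abundant in CPM, had a log2 fold change of -0.39 ± 0.85, Elane, neutrophil elastase, one of -1.71 ± 0.68, and Csf3r, the receptor of granulocyte colony-stimulating factor, one of -0.87 ± 0.48. The median of the neutrophil list was -0.28 without Flox 3 and -1.23 without LKO 2. Sinusoidal endothelial markers ran from 98.5 to 162 CPM in LKO and from 124 to 192 CPM in Flox (8 of 12 lower, median -0.26), with Clec4g, a sinusoidal lectin, at 17.2 ± 2.95 CPM in LKO and 24.8 ± 5.68 CPM in Flox. Egfl7, an endothelial secreted protein, was at 5.66 ± 1.35 CPM in LKO and 8.52 ± 2.32 CPM in Flox. Stab2 (log2 fold change 0.03 ± 0.13), Kdr (0.03 ± 0.15), Oit3 (0.04 ± 0.16) and Lyve1 (0.25 ± 0.41) were flat or higher in LKO. Without Flox 4 the median of the endothelial list was -0.12. No marker of these 5 lists was at 0 in all libraries, and 0 passed edgeR's adjusted test.

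Stellate cell markers, from the cells that make Hgf, had 6 of 10 members higher in LKO (median log2 fold change 0.26), with summed CPM of 250.4 to 402 in LKO and 147 to 381 in Flox. Rgs5, of pericytes and stellate cells, was at 23.0 ± 4.18 CPM in LKO and 13.5 ± 4.06 CPM in Flox (0.81 ± 0.23 SE, unadjusted p = 0.0046, adjusted p = 0.652). The stellate sum was 147 CPM in Flox 2, the library lowest in Hgf, and 156 CPM in Flox 3, which was second highest of Flox in Hgf. No other library was under 250.4 CPM, and the median of the list was 0.09 without Flox 3, 0.43 without Flox 5 and -0.12 without Flox 2 and 3. Dcn, a matrix proteoglycan and the most abundant of these markers in CPM, was at 99.6 ± 17.4 CPM in LKO and 89.1 ± 34.5 CPM in Flox (0.20 ± 0.26 SE). Ecm1, a matrix protein, had a log2 fold change of 0.43 ± 0.33. Des (-0.11 ± 0.12), Hand2 (-0.14 ± 0.24), Pdgfrb (-0.18 ± 0.20) and Lhx2 (-0.15 ± 0.30) had lower values in LKO. Cholangiocyte markers had 4 of 6 members higher in LKO (median 0.05), and hepatocyte markers 7 of 9 (median 0.15). The cholangiocyte median was -0.02 without Flox 1, 0.17 without LKO 5 and 0.19 without Flox 2 and 3, and the hepatocyte median was 0.09 without Flox 3 and 0.03 without Flox 2 and 3. The keratins Krt19 and Krt7 had log2 fold changes of 0.69 ± 0.40 and 0.62 ± 0.38, and Spp1, osteopontin, one of -0.08 ± 0.20. Cps1, an enzyme of the urea cycle, had one of 0.36 ± 0.20, and Alb one of 0.62 ± 0.26 (unadjusted p = 0.0336, edgeR adjusted p = 0.652). The hepatocyte markers Trf (-0.12 ± 0.18) and Hnf4a (-0.12 ± 0.14) had lower values in LKO. The summed CPM of cholangiocyte markers was 28.0 to 40.4 in LKO and 29.9 to 43.1 in Flox. For hepatocyte markers the sum was 147156 to 178983 in LKO and 82604 to 145332 in Flox. Alb was the largest part of the hepatocyte sum, with a mean of 106771 CPM in LKO and 71229 CPM in Flox.

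**Figure D5:**
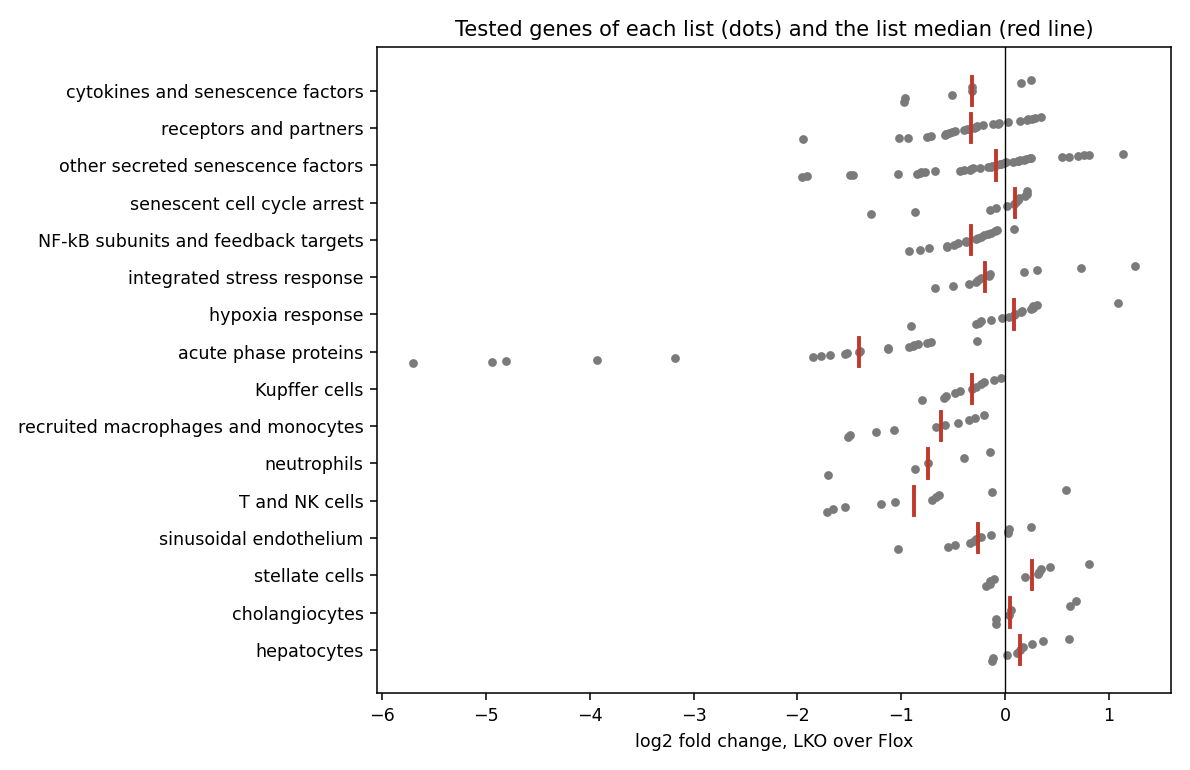
Log2 fold change of LKO over Flox for each tested gene (dots) of the cytokines and senescence factors and of 15 lists beside them, with the list median in red. Acute phase proteins have the lowest median (-1.41), and the lists of senescent cell cycle arrest and hypoxia lie near 0 (0.09 each).

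The 30 receptors and partners of the cytokines were tested for 28 members. Of these 21 were lower and 7 higher in LKO, 0 passed after adjustment, and the median log2 fold change was -0.32. Without Flox 3 the median was -0.21, and without Flox 2 and 3 it was -0.09, with 19 lower and 9 higher. The list of NF-kB subunits and feedback targets also held Cebpb (-0.56 ± 0.26 SE) and Cebpd, which are C/EBP transcription factors. It showed a similar pattern: 17 of 18 were lower (median -0.33) and 0 passed. The median of this list was -0.15 without Flox 3 and -0.13 without Flox 2 and 3. Nfkbib, an inhibitor of NF-kB, was at 31.4 ± 2.93 CPM in LKO and 41.9 ± 6.18 CPM in Flox (-0.38 ± 0.11 SE, unadjusted p = 0.0044, adjusted p = 0.652). Cebpd, a transcription factor of the acute phase, was at 7.79 ± 2.32 CPM in LKO and 13.2 ± 3.58 CPM in Flox (-0.73 ± 0.25 SE). All 21 acute phase proteins had lower values in LKO, Serpina3n at 352 ± 63.1 CPM in LKO and 1240 ± 1071 CPM in Flox, Saa2 at 102 ± 97.6 CPM in LKO and 5426 ± 7432 CPM in Flox and Hpx at 6421 ± 2493 CPM in LKO and 11827 ± 7652 CPM in Flox, and the list median of -1.41 was -0.27 without Flox 2 and 3.

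Of 52 other secreted senescence factors, 39 were tested and 0 passed. Lower values in LKO were seen for 24 of the 39 and higher values for 15, against 51.6% lower over all genes tested, and the median log2 fold change was -0.08 (-0.20 without LKO 5, -0.05 without Flox 4). Tgfb2, a growth factor of fibrosis, was at 0.490 ± 0.140 CPM in LKO and 0.225 ± 0.0441 CPM in Flox (1.14 ± 0.32 SE), and Timp3, another metalloproteinase inhibitor, at 6.38 ± 2.15 CPM in LKO and 3.73 ± 0.846 CPM in Flox (0.81 ± 0.23 SE), so both had values opposite in direction to Timp1. Their unadjusted p-values in edgeR were 0.0040 and 0.0048, with an adjusted p of 0.652 for each. Of the 39, 6 had an unadjusted p under 0.05, these 2 higher in LKO and 4 lower. Over all genes tested the shares were 3.17% higher and 4.33% lower. The 4 lower were Cxcl10 (-1.95 ± 0.81 SE), Ccl8 (-1.91 ± 0.78), Wnt2 (-1.03 ± 0.40) and Plau (-0.85 ± 0.34), each with an adjusted p of 0.652. The genes of senescent cell cycle arrest had 4 lower and 8 higher members, with 0 past the test (median 0.09, and 0.06 without LKO 4). The log2 fold changes of the 8 higher members ran from 0.02 (Lmnb1) to 0.21 (Cdkn2b). Of the 4 lower, Cdkn1a, the p21 inhibitor, was at 7.25 ± 4.79 CPM in LKO and 18.2 ± 13.8 CPM in Flox (-1.29 ± 0.64 SE, edgeR adjusted p = 0.654). Cdkn2a, which encodes p16 and Arf, was at 0.422 ± 0.250 CPM in LKO and 0.804 ± 0.540 CPM in Flox (-0.87 ± 0.54 SE, edgeR adjusted p = 0.671).

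Beside Gdf15, the integrated stress response, which includes inducers of that gene, had 8 of 12 tested members lower in LKO (median log2 fold change -0.19, and -0.12 without Flox 1) and 0 past the adjusted test. Ddit3, a transcription factor of that response, was at 3.59 ± 0.413 CPM in LKO and 5.24 ± 1.82 CPM in Flox (-0.50 ± 0.21 SE, unadjusted p = 0.0309, adjusted p = 0.652), and Atf4 at 83.4 ± 5.13 CPM in LKO and 94.9 ± 10.1 CPM in Flox. Beside Vegfa, a target of hypoxia-inducible factors, 10 of 16 hypoxia genes were higher and 6 lower (median 0.09, 0.04 without Flox 3 and 0.15 without Flox 1), with 0 past the adjusted test. Hif1a itself was at 33.8 ± 4.70 CPM in LKO and 28.7 ± 3.96 CPM in Flox (0.27 ± 0.12 SE), and Ankrd37, a hypoxia-induced gene, at 0.651 ± 0.257 CPM in LKO and 0.314 ± 0.166 CPM in Flox (1.09 ± 0.42 SE). The adjusted p was 0.652 for both.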

How the data were processed

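Liver RNA was isolated with Trizol and made into oligo-dT libraries, per the labels' protocols. The authors deposited raw read counts for each Ensembl gene in 1 column per library, per the file headers, with no scaling. STAR 2.5.1a, Subread and featureCounts 1.4.6-p5 on build GRCm38 come from the submitters' processing notes. How strand and multi-mapped reads were handled, and which annotation was counted, is not given in the sources used here.

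After 287 repeated identifiers with identical counts were dropped, 55487 genes remained. Genes were filtered with edgeR's filterByExpr, scaled by TMM, and LKO was compared with Flox by the quasi-likelihood F test (edgeR 4.0.16, R 4.3.3, robust), adjusted over all genes by Benjamini-Hochberg. Members under the filter were read from a fit without it and tested by exact permutation. The SE of an edgeR log2 fold change is its absolute value divided by the square root of its F statistic, as the test gives no SE. CPM uses library totals. Exon lengths and positions come from GENCODE M21 (GRCm38). DESeq2 1.42.0 and limma-voom with sample quality weights (limma 3.58.1) were alternatives. The scripts were tested on simulated data. A count of 0 allows up to 0.0546 to 0.0692 CPM per library. The 45 pairs of libraries differed beyond sampling noise. The members, lists and tests were chosen with earlier results of these data known. Lists were described by counts and medians. Genes were named as all members, partners of a member and the 2 smallest p-values of each list. Also named was the most abundant gene of each cell type or acute phase list. For each tested member, the 2 genes most alike in order by Spearman's rho among 10907 genes were named. Stellate, endothelial, hepatocyte, and T and NK cell markers opposite in direction to their list median were named as well. So were the other secreted senescence factors with an unadjusted edgeR p under 0.05, and the ends of the range of the higher cell cycle arrest genes.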

Additional observations from a re-analysis of the deposited data

Results flagged for a closer look

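The Hgf level of Flox 2 lay far from the other 4 Flox libraries: its log2 CPM was 1.01, against 1.44 to 1.54 in the other Flox libraries, from 99 counts. It was the only one of the 19 sets of 5 libraries examined that stood apart in this way, where chance flags about 1 set in 20. Without it the log2 fold change of Hgf was 0.17.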

How the results depend on the processing

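The count of genes past the threshold was 0 in the main setting and all alternatives except DESeq2 (6 genes, of which 3 were higher and 3 lower) and the fits with no count filter that left out LKO 1, LKO 5 or Flox 5 (1 gene each, none of the 10). The fold changes of 9 genes were recomputed under up to 17 alternatives, and none brought an adjusted p under 0.05. Il1a turned to a log2 fold change of 0.03 (0.0298) without Flox 4, the only reversal among these. When 1 library was left out, the fold changes ranged from -0.61 to -0.37 for Csf1, -1.19 to -0.56 for Icam1, -1.27 to -0.57 for Il1b, -0.55 to -0.14 for Gdf15, -2.27 to -1.07 for Timp1, -1.48 to -0.49 for Tnf, 0.08 to 0.22 for Vegfa and 0.17 to 0.31 for Hgf. Icam1 was at -0.61 and Il1b at -0.53 in limma-voom with sample quality weights, which changes the tool and the weights together. Library totals moved the median of all genes to -0.05. The list medians without libraries were added after the data were seen. Flox 2 and 3, left out together, had the highest shares of Saa1 and Saa2 (1.72% and 3.43%). Flox 4 (0.394%) stayed in those fits, and no fit left out Flox 2, 3 and 4 together. Il6, Tnf and Timp1 are limited by their counts. No paired analysis was possible because the sample titles share no replicate numbers between the groups.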
